A study of Homo sapiens with 18 samples.

Results

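The genes described here code for adaptors and enzymes that act directly below TNF-family, Toll-like and NOD receptors, namely the TRAF proteins (TRAF1, TRAF2, TRAF3, TRAF6), the cellular inhibitors of apoptosis cIAP1 (BIRC2) and cIAP2 (BIRC3), and the receptor-interacting kinases RIPK1 and RIPK2. The 8 genes were taken by symbol, through the RefSeq identifier of each counted target, from the 20802 genes in the count tables, and each symbol matched 1 target. Of these, 7 genes had more than 100 counts over all libraries and were tested, and TRAF1 did not pass this minimum. RKO is an established human colorectal carcinoma line, and its cells received 30 nM of a Silencer Select siRNA with Lipofectamine RNAiMAX and were harvested 72 h later. The 6 groups of 3 libraries each were the nontargeting siCtrl#1 and siCtrl#2, the siTsg101#1 and siTsg101#2 directed against TSG101, and the siVps28#1 and siVps28#2 directed against VPS28. TSG101 and VPS28 are subunits of ESCRT-I, an endosomal complex that sorts ubiquitinated membrane proteins for lysosomal degradation. All groups were of the same line and received siRNA and transfection reagent, so no library came from untransfected cells. The comparisons address how depletion of ESCRT-I changed the transcripts of these signaling adaptors.

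After a TNF-family receptor binds its ligand, TRAF2 brings cIAP1 and cIAP2 to the receptor, where these ubiquitin ligases modify RIPK1 and so allow the IKK kinases to activate NFκB. In resting cells the same ligases, held together by TRAF2 and TRAF3, keep the kinase NIK (MAP3K14) at a low level and thereby restrain the noncanonical NFκB pathway. TRAF6 serves Toll-like and interleukin-1 receptors, and RIPK2 couples the NOD1 and NOD2 sensors of bacterial peptidoglycan to the same kinases. TRAF1 and BIRC3 are known as transcriptional targets of NFκB. These statements are background and not results of the libraries.

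The reads on genes numbered 2561790 to 7466916 per library (median 5022216.5). TSG101 and VPS28 had log2 fold changes between −5.11 and −4.07 with the siRNAs directed against them, and neither was called with siRNAs against the other subunit. Of 8 colorectal epithelial markers, EPCAM, KRT8, KRT18 and CDX2 had more than 100 counts, whereas CDH1 had 0 counts and KRT19, KRT20 and VIL1 had between 1 and 6 counts over all libraries. The summed level of the list was 126.8 to 167 CPM (counts-per-million reads on the genes tested) in the nontargeting libraries. It was 93.8 to 145 CPM in the on-target libraries, and the part of this shift in the results below was not tested. The leukocyte markers PTPRC and CD3E were at 0 and CD14 had 9 counts in all, and of the stromal and endothelial markers COL3A1 was at 0 and COL1A1 had 50 counts. The study describes the replicates as independent experiments. In bulk RNA fewer expressing cells and less RNA per cell cannot be told apart.

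BIRC3 and BIRC2 lie next to each other on chromosome 11, in the same orientation and 7807 bases apart (GRCh37, BIRC3 ENSG00000023445 at 102188215 to 102210134 and BIRC2 ENSG00000110330 at 102217942 to 102249401). The 250 bases before their annotated starts are shown because BIRC3 was called against either nontargeting reference and BIRC2 was not, and those of TRAF3 because they hold the only other match among the members searched. The sequences come from RefSeq promoter windows on GRCh38.p14, read 5′ to 3′ on the plus strand, and capitals mark matches to the NFκB consensus (the κB motif, 10 letters, searched on both strands).
BIRC3, chr11:102317234-102317483: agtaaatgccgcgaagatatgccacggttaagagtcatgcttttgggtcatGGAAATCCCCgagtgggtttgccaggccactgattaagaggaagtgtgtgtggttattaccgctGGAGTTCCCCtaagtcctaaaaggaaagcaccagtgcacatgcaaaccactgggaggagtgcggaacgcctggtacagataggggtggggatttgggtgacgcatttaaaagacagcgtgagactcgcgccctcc
BIRC2, chr11:102346964-102347213: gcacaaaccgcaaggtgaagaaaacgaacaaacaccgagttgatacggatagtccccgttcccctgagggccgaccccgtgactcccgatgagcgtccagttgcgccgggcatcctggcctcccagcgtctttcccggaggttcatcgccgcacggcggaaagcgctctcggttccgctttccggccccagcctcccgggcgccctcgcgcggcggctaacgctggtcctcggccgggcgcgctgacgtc
TRAF3, chr14:102777199-102777448: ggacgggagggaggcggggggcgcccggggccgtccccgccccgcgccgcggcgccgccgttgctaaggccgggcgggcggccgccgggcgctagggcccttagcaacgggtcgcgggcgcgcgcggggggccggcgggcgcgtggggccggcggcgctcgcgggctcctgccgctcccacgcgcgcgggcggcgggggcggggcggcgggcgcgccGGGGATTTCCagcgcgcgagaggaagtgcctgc
The BIRC3 window held 2 matches, both on the minus strand, at positions −199 to −190 and −135 to −126 counted from the start. The TRAF3 window held 1 match on the plus strand, at positions −33 to −24, and the 2 windows of BIRC2 held none. No match was found in the windows of TRAF1 (3 windows), TRAF2 (1), TRAF6 (1) and RIPK1 (3), and RIPK2 was not searched. Of all 35116 promoter windows of this length, 9.96% held at least 1 match, as did 12.1% of the 12114 windows of tested genes. A match describes letters in this window and not binding.

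Levels are given as counts-per-million reads on the genes tested (CPM), after scaling between libraries by the trimmed mean of M values (TMM). They compare libraries for 1 gene, not genes with each other. Changes are log2 fold changes from edgeR's quasi-likelihood test, with Benjamini-Hochberg adjustment over the 10246 genes tested, and a call needed a change of at least 1.5-fold together with an adjusted p under 0.05. The reference was siCtrl#1 unless another is named.

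BIRC3, the gene for cIAP2, was up-regulated with each of the 4 on-target siRNAs and changed more than any other member. Its level was 17.9, 16.3 and 16.1 CPM in replicates 1, 2 and 3 of siCtrl#1 and 8.89, 15.8 and 13.3 CPM in those of siCtrl#2. It reached 238, 113 and 93.2 CPM with siTsg101#1 and 145, 89.6 and 84.6 CPM with siTsg101#2. With siVps28#1 it was 258, 170.3 and 147 CPM, and with siVps28#2 it was 179, 161 and 152 CPM. Every on-target library therefore lay above every nontargeting library, and the lowest on-target value (84.6 CPM) stood well clear of the highest nontargeting one (17.9 CPM). Among all genes tested, 1.96% showed such a separation upwards. Within each of the 4 on-target groups, the library of replicate 1 had the highest BIRC3 level.

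With siTsg101#1 the log2 fold change of BIRC3 was 3.13 (SE 0.31, adjusted p = 1.73e-07), and with siTsg101#2 it was 2.66 (SE 0.31, adjusted p = 1.40e-06). Depletion of VPS28 gave 3.51 (SE 0.31, adjusted p = 1.20e-07) for siVps28#1 and 3.29 (SE 0.31, adjusted p = 1.98e-07) for siVps28#2. The mean of the 4 was 3.15 (SE 0.28, adjusted p = 4.97e-08), a change of 8.85-fold and the rank of 19 from the highest among the 10246 genes. Compared within replicate numbers, which the labels also give as the batch, all 12 on-target libraries exceeded their siCtrl#1 partner, by 2.37 to 3.81 on the log2 scale. By group mean the order was siCtrl#2 (12.7 ± 3.51 CPM, SD, n = 3), siCtrl#1 (16.8 ± 1.02), siTsg101#2 (106 ± 33.4), siTsg101#1 (148 ± 78.4), siVps28#2 (164 ± 13.8) and siVps28#1 (192 ± 58.4). The ranges of neighbouring on-target groups in this order overlapped. An antisense noncoding gene overlaps 126 of the 7484 exonic bases of BIRC3, and reads of the pair cannot be told apart if the counting ignored strand.

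**Figure D1:**
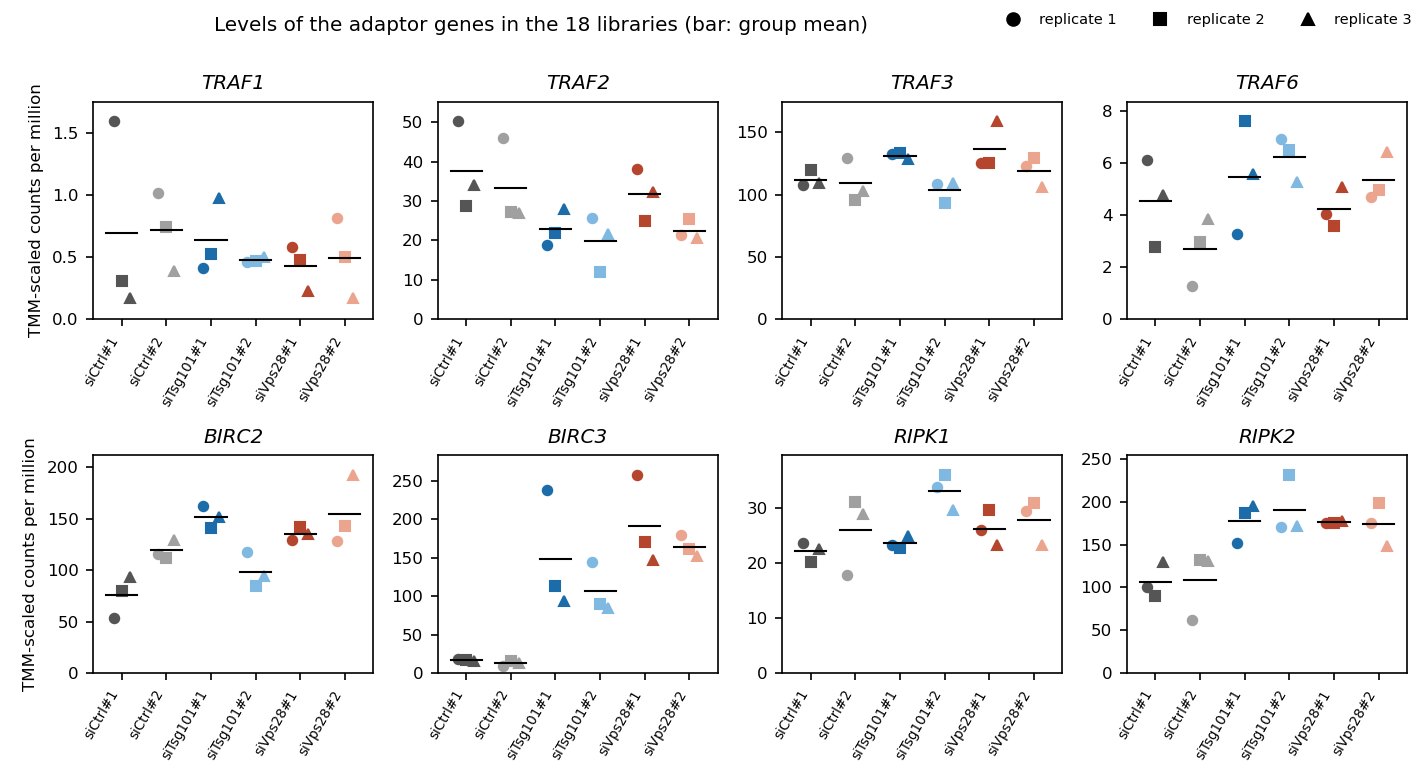
TMM-scaled CPM (linear axes from 0) of the 8 genes in each of the 18 libraries, by siRNA group, with circles, squares and triangles for replicates 1, 2 and 3 and a bar at the group mean. The 12 on-target libraries lie above the 6 nontargeting libraries for BIRC3 and RIPK2 (as for 1.96% of all genes tested), whereas the groups overlap for the other genes.

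BIRC2, the gene for cIAP1, rose with 3 of the 4 on-target siRNAs against siCtrl#1 but did not pass the test against siCtrl#2. Its level was 53.4, 79.7 and 93.7 CPM with siCtrl#1 and 116, 112 and 129.9 CPM with siCtrl#2. With siTsg101#1 it was 163, 141 and 152 CPM and with siTsg101#2 117, 84.7 and 94.2 CPM. With siVps28#1 it was 129, 142 and 135 CPM and with siVps28#2 128, 143 and 193 CPM. Of the 12 on-target libraries, 11 lay above all siCtrl#1 libraries, and 7 lay above all 6 nontargeting libraries. The share of all genes with such counts was not determined.

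Against siCtrl#1 the log2 fold change of BIRC2 was 1.00 (SE 0.19, adjusted p = 3.95e-04) with siTsg101#1, 0.84 (SE 0.19, adjusted p = 0.00525) with siVps28#1 and 1.03 (SE 0.19, adjusted p = 5.31e-04) with siVps28#2. With siTsg101#2 it was 0.38 (SE 0.19, adjusted p = 0.15), which was not called. The mean over the 4 siRNAs was 0.81 (SE 0.16, adjusted p = 5.01e-04). The nontargeting siCtrl#2 itself differed from siCtrl#1 by 0.66 (SE 0.19, adjusted p = 0.0685), a difference that was called with the replicate block (0.67, adjusted p = 0.0365). With siCtrl#2 as the reference the mean change was 0.16 (95% CI −0.15 to 0.46, adjusted p = 0.517), and no single on-target siRNA was called. The up-regulation of BIRC2 thus depended on which nontargeting siRNA was the reference, and that of BIRC3 did not (3.55 against siCtrl#2, SE 0.29, adjusted p = 1.87e-08).

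The balance of the cIAP transcripts shifted accordingly. The number of BIRC3 counts per BIRC2 count was 0.336, 0.205 and 0.172 in the siCtrl#1 libraries and 0.0769, 0.141 and 0.102 in the siCtrl#2 libraries. It was 1.46, 0.804 and 0.615 with siTsg101#1 and 1.23, 1.06 and 0.898 with siTsg101#2. It was 2.00, 1.20 and 1.09 with siVps28#1 and 1.40, 1.13 and 0.789 with siVps28#2. The nontargeting and on-target libraries did not overlap in this ratio, which needs no scaling between libraries. BIRC3 alone already separated them (at most 17.9 against at least 84.6 CPM), while BIRC2 ranged only from 53.4 to 193 CPM. The ratio therefore restates the rise of BIRC3 and is not a separate result. As each gene is read through its own amplicon, the ratio compares libraries and does not give the molar proportion of the transcripts. The transcripts share at most 60 identical bases in a row (GENCODE on GRCh37), and 0.225% of the 50-base stretches of BIRC2 also occur in BIRC3.

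**Figure D2:**
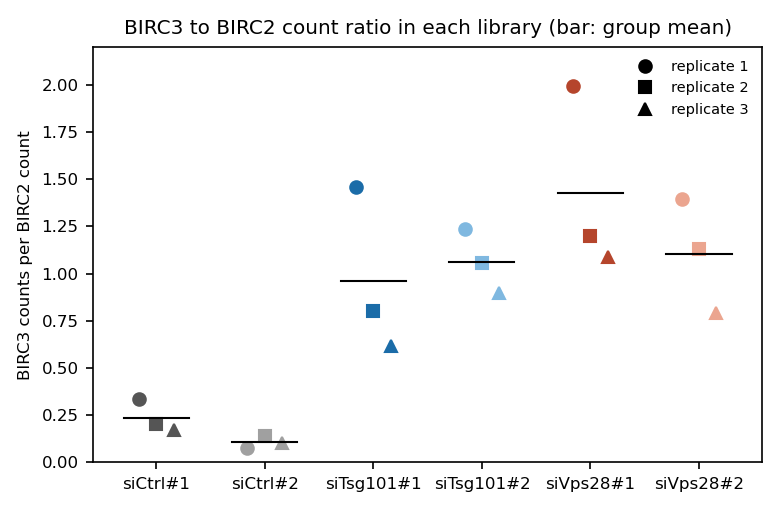
BIRC3 counts divided by BIRC2 counts (linear axis from 0) in each library, by siRNA group, with a bar at the group mean of 3 libraries. The 6 nontargeting libraries lie between 0.0769 and 0.336, and the 12 on-target libraries between 0.615 and 2.00.

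RIPK2, the kinase that relays NOD1 and NOD2 signals (ENSG00000104312, chromosome 8 of GRCh37, 90770034 to 90803292), was moderately up-regulated with all 4 on-target siRNAs. Its level was 101, 89.5 and 129.8 CPM with siCtrl#1 and 62.5, 132 and 131 CPM with siCtrl#2. It was 152, 187 and 196 CPM with siTsg101#1 and 170.4, 232 and 172 CPM with siTsg101#2. It was 176, 175 and 177 CPM with siVps28#1 and 176, 198 and 149 CPM with siVps28#2. As for BIRC3, no on-target library fell into the range of the nontargeting ones, although the gap was small (149 against 132 CPM). Such a separation upwards was seen for 1.96% of all genes tested.

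For siTsg101#1 the log2 fold change of RIPK2 was 0.74 (SE 0.22, adjusted p = 0.0145) and for siTsg101#2 it was 0.84 (SE 0.22, adjusted p = 0.00798). Depletion of VPS28 gave 0.72 (SE 0.22, adjusted p = 0.038) for siVps28#1 and 0.70 (SE 0.22, adjusted p = 0.0285) for siVps28#2. The mean was 0.75 (SE 0.18, adjusted p = 0.00371), or 1.68-fold, and it was 0.73 (SE 0.18, adjusted p = 0.00692) against siCtrl#2. The nontargeting groups differed by 0.02 (SE 0.22, adjusted p = 0.98). All 12 on-target libraries exceeded the library of the same replicate number in siCtrl#1 (by 0.20 to 1.37 on the log2 scale) and in siCtrl#2 (by 0.18 to 1.49). The mean change stayed called when any 1 library was left out (0.64 to 0.92), but at least 1 of the single-siRNA calls was lost without siCtrl#1 replicate 1 or 2, siTsg101#1 replicate 3, any siVps28#1 replicate, or siVps28#2 replicate 1 or 2. Against siCtrl#2, the change with siVps28#1 was 0.70 (adjusted p = 0.0699) and was not called.

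RIPK1, the kinase that cIAP proteins ubiquitinate at the TNF receptor (ENSG00000137275, chromosome 6, 3064058 to 3115421), was not called with any siRNA against siCtrl#1, although siTsg101#2 lay at the limit. Its level ranged from 17.8 to 31.1 CPM in the nontargeting libraries (median 23.1) and from 22.8 to 36.1 CPM in the on-target libraries (median 27.8), so the ranges overlapped widely. The closest to a call was siTsg101#2, with 34.0, 36.1 and 29.6 CPM and a log2 fold change of 0.58 (SE 0.19, adjusted p = 0.0343), which is 1.49-fold and lies just under the 1.5-fold limit. This comparison was called with a minimum of 10 counts in every library (0.60, adjusted p = 0.0293), with noncoding types included (0.59, adjusted p = 0.0337), with the adjusted p alone, and when any of 8 single libraries was left out (0.59 to 0.65). The mean over the 4 siRNAs was 0.31 (95% CI −0.01 to 0.64, adjusted p = 0.16). Against siCtrl#2 it was 0.08 (SE 0.15, adjusted p = 0.772). Antisense annotations overlap 454 of its 12173 exonic bases.

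TRAF2, the adaptor that carries the cIAP proteins to TNF receptors (ENSG00000127191, chromosome 9, 139776364 to 139821059), was the only member with a call downwards. It stood at 50.2, 28.6 and 34.1 CPM with siCtrl#1 and at 46.0, 27.2 and 26.9 CPM with siCtrl#2. It was 18.8, 21.8 and 28.05 CPM with siTsg101#1 and 25.8, 11.97 and 21.5 CPM with siTsg101#2. It was 38.1, 24.8 and 32.3 CPM with siVps28#1 and 21.4, 25.5 and 20.5 CPM with siVps28#2. Of the 12 on-target libraries, 9 were below all 6 nontargeting libraries, and the replicate 1 libraries of both nontargeting siRNAs were the highest of all. The share of all genes with such a count was not determined.

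The change of TRAF2 was −0.93 (SE 0.27, adjusted p = 0.0149) with siTsg101#2 and was called. This call was lost without siTsg101#2 replicate 2 (−0.66, adjusted p = 0.0965), without siCtrl#1 replicate 1 (−0.67, adjusted p = 0.114) and against siCtrl#2 (−0.75, adjusted p = 0.0551). With siTsg101#1 it was −0.69 (adjusted p = 0.06) and with siVps28#2 −0.75 (adjusted p = 0.0581), and both were called with the replicate block (−0.64, adjusted p = 0.0404, and −0.70, adjusted p = 0.0331). With siVps28#1 it was −0.25 (SE 0.26, adjusted p = 0.635). The mean was −0.66 (SE 0.20, adjusted p = 0.0202). All 12 on-target libraries were below their siCtrl#1 partner of the same replicate number, and 10 of 12 were below their siCtrl#2 partner. The call for the mean rested on siCtrl#1 replicate 1, without which the mean was −0.40 (SE 0.23, adjusted p = 0.272). Against siCtrl#2 it was −0.47 (SE 0.21, adjusted p = 0.122).

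TRAF3, which links TRAF2 and the cIAP proteins to NIK (ENSG00000131323, chromosome 14, 103243786 to 103377837), was not called in any comparison. It ranged from 95.9 to 129.5 CPM in the nontargeting libraries (median 108) and from 93.4 to 159 CPM in the on-target libraries (median 125). The mean log2 fold change was 0.13 (95% CI −0.12 to 0.37, adjusted p = 0.486), and the upper limit of this interval is below 1.5-fold. The values by siRNA ran from −0.11 with siTsg101#2 to 0.29 with siVps28#1.

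TRAF6, the ligase that acts below Toll-like and interleukin-1 receptors (ENSG00000175104, chromosome 11, 36505319 to 36531822), had only 5 to 45 counts per library, and its changes are correspondingly imprecise. It stood at 6.13, 2.77 and 4.79 CPM with siCtrl#1 and at 1.27, 2.97 and 3.85 CPM with siCtrl#2. The on-target libraries ranged from 3.27 to 7.61 CPM, with a median of 5.19. Against siCtrl#1 the mean log2 fold change was 0.19 (95% CI −0.38 to 0.76, adjusted p = 0.67), which was not called. Against siCtrl#2 it was 0.94 (SE 0.31, adjusted p = 0.0381) and was called, and all 12 on-target libraries were higher than the siCtrl#2 library of the same replicate number, by 0.24 to 2.14 on the log2 scale. With siTsg101#2 alone, TRAF6 was called against siCtrl#2 (1.17, SE 0.36, adjusted p = 0.0252) and against the mean of both references (0.80, SE 0.29, adjusted p = 0.045). The nontargeting groups themselves differed by −0.75 (siCtrl#2 against siCtrl#1, SE 0.38, adjusted p = 0.367).

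TRAF1, an NFκB-inducible adaptor that binds TRAF2 (ENSG00000056558, chromosome 9, 123664671 to 123691451), was close to the detection limit of these libraries in every group. It had between 1 and 7 counts per library and 51 in all. Without the low-count filter its mean log2 fold change was −0.37 (95% CI −1.70 to 0.97, adjusted p = 0.87), a wide interval that leaves the change of TRAF1 poorly determined at this depth.

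Counted over the 7 tested members, siTsg101#1, siVps28#1 and siVps28#2 each up-regulated 3 genes (BIRC3, BIRC2 and RIPK2), and siTsg101#2 up-regulated 2 genes (BIRC3 and RIPK2) and down-regulated 1 gene (TRAF2). The share of all genes tested that was up-regulated was 11.6% for siTsg101#1 and 10.1% for siTsg101#2, and for siVps28#1 and siVps28#2 it was 4.85% and 7.09%, whereas 6.94% were down-regulated with siTsg101#2. In the mean of the 4 siRNAs, 3 members were up-regulated and 1 was down-regulated, against 8.4% and 6.57% of all genes. BIRC3 and RIPK2 were up-regulated with all 4 siRNAs, a set that holds 2.55% of all genes. The median log2 fold change of the 7 members in the single comparisons was 0.27 with siTsg101#1 and 0.42 with siTsg101#2, against −0.01 and −0.0047 for all genes tested. With siVps28#1 and siVps28#2 it was 0.29 and 0.33, against 0.0056 and 0.014. These comparisons share the siCtrl#1 libraries and are not independent of each other. The members were also chosen with earlier results of these data known, so their shares and medians are descriptive and not a test. No member was called between the nontargeting siRNAs by edgeR, where 2.06% of all genes were, although BIRC2 had an unadjusted p of 0.00185 and was called by DESeq2 (0.66, adjusted p = 0.0309).

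**Figure D3:**
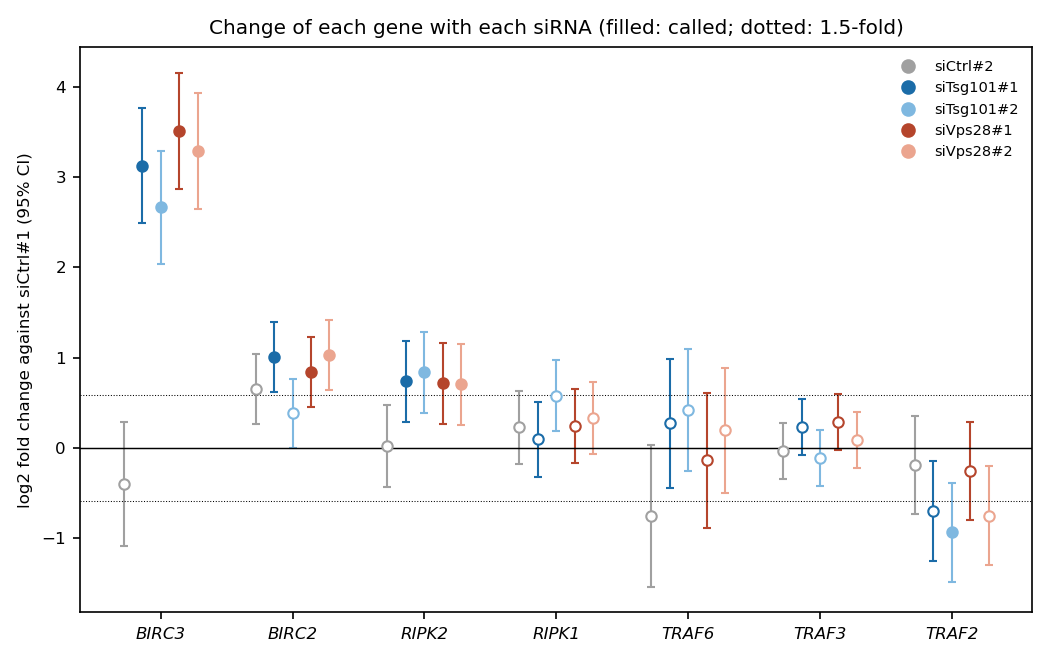
Log2 fold changes against siCtrl#1 of the 7 tested genes with siCtrl#2 (grey) and with each on-target siRNA, with 95% confidence intervals from the edgeR fit, filled where called, and dotted lines at 1.5-fold in either direction. BIRC3 lies between 2.66 and 3.51 with the on-target siRNAs, RIPK2 between 0.70 and 0.84, and the siCtrl#2 value of BIRC2 (0.66) lies among those of its on-target siRNAs.

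The call for the mean of the 4 siRNAs depended on the nontargeting reference for BIRC2, TRAF2 and TRAF6, and not for BIRC3, RIPK2, RIPK1 and TRAF3. BIRC3 and RIPK2 were called against siCtrl#1, siCtrl#2 and the mean of both. In the mean of the siRNAs, BIRC2 and TRAF2 were called against siCtrl#1 only, and against the mean of both references they were at 0.49 (adjusted p = 0.00278) and −0.57 (adjusted p = 0.0102), under the 1.5-fold limit. The mean change of TRAF6 was called against siCtrl#2 only, and against the mean of both it was at 0.56 (adjusted p = 0.0604). Over all genes tested, 15.0% were called against siCtrl#1, 10.5% against siCtrl#2 and 12.1% against the mean of both.

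**Figure D4:**
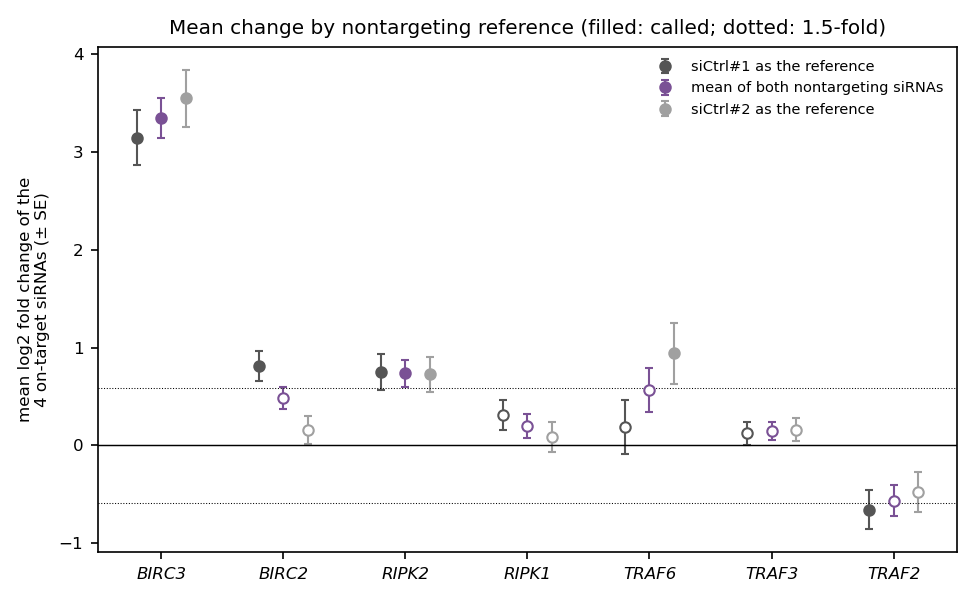
Mean log2 fold change of the 4 on-target siRNAs (± SE) of the 7 tested genes against siCtrl#1, the mean of both nontargeting siRNAs and siCtrl#2, filled where called, with dotted lines at 1.5-fold in either direction. BIRC3 and RIPK2 are called with each reference, BIRC2 falls from 0.81 to 0.16, and TRAF6 goes from 0.19 to 0.94.

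Whether depletion of TSG101 and of VPS28 differed in their effect was asked by comparing the siTsg101 groups with the siVps28 groups, which uses no nontargeting library. No member was called by edgeR or DESeq2, against 6.2% of all genes by edgeR, and 1 member (BIRC3) had an unadjusted p under 0.05. BIRC3 was lower with siTsg101 by 0.50 on the log2 scale (95% CI −0.90 to −0.11, adjusted p = 0.0887), and it was called without siTsg101#1 replicate 1 (−0.76, adjusted p = 0.00361) and without siTsg101#2 replicate 1 (−0.65, adjusted p = 0.0366). RIPK2 differed by 0.08 (95% CI −0.24 to 0.39, adjusted p = 0.805), and TRAF2 by −0.31 (95% CI −0.71 to 0.08, adjusted p = 0.323). Between the siRNAs of 1 target, the only call was BIRC2, which was higher with siTsg101#1 than with siTsg101#2 (0.62, SE 0.18, adjusted p = 0.0384), where 6.94% of all genes were called. RIPK1 was lower with siTsg101#1 (−0.48, 95% CI −0.88 to −0.09, adjusted p = 0.13) and was not called. No member was called between siVps28#1 and siVps28#2 by edgeR or DESeq2, and 0 members had an unadjusted p under 0.05, where 0.488% of all genes were called.

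Across the 18 libraries, the genes whose log2 CPM followed BIRC3 most closely were NFKBIZ, an NFκB cofactor (r = 0.96), CXCL8, the chemokine interleukin-8 (r = 0.96), and IRAK2, a kinase of the Toll-like receptor pathway (r = 0.96). Within the 12 on-target libraries these values were 0.67, 0.36 and 0.41, so that much of the likeness lies in the step between nontargeting and on-target libraries. For RIPK2 the closest genes were LACTB (r = 0.93), EMC2 (r = 0.92) and KBTBD8 (r = 0.89). Within the 12 on-target libraries their values were 0.22, 0.69 and 0.41. For BIRC2 the closest genes were FXR2 (r = 0.92), YPEL5 (r = 0.91) and ZFYVE1 (r = 0.89), none of which was among the closest genes of BIRC3. Their values within the 12 on-target libraries were 0.86, 0.91 and 0.73. BIRC3 and RIPK2 correlated with each other at r = 0.78 and BIRC3 and BIRC2 at r = 0.57. TRAF2 ran against RIPK2 (r = −0.65). These correlations describe libraries that share siRNA groups and batches, and carry no test.

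The other genes of these pathways were described through a list of 52 genes, of which 43 were tested. The list was chosen with earlier results of these data known, so its shares and medians are descriptive and not a test. In the mean of the 4 on-target siRNAs, 9 of the 43 were up-regulated and 1 was down-regulated, against 8.4% and 6.57% of all genes, and the listed genes had a median of 0.12 on the log2 scale against −0.0079 for all genes. With all 4 siRNAs alike, 6 were up-regulated and 1 was down-regulated, against 2.55% and 1.56% of all genes. Against siCtrl#2, 5 of the 43 were up-regulated in the mean, against 6.09% of all genes.

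Among other TRAF proteins and receptor-proximal adaptors, 1 of 11 tested genes was up-regulated in the mean, against 8.4% of all genes. This was IRAK2 (2.66, SE 0.21, adjusted p = 1.04e-08), with 4.4 to 7.1 CPM in the nontargeting and 27.8 to 57.6 CPM in the on-target libraries. TRAF4, TRAF7, TRADD, FADD and MYD88 were not called. FADD fell to 1.91 CPM in its lowest on-target library (on-target median 63.3), and its changes were imprecise (SE 0.52 with siTsg101#1). TRAF5 was called with both siTsg101 siRNAs and with neither siVps28 siRNA, and the difference between the targets was 0.85 (SE 0.24, adjusted p = 0.02).

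Among other inhibitors of apoptosis and their antagonists, 1 of 4 tested genes rose in the mean and 1 fell, against 8.4% and 6.57% of all genes. XIAP, which inhibits caspases directly, rose by a mean of 1.06 (SE 0.14, adjusted p = 1.16e-05), and it also differed between siCtrl#2 and siCtrl#1 (0.70, adjusted p = 0.0286). BIRC5, which codes for survivin, a protein of dividing cells, changed by −0.85 (SE 0.12, adjusted p = 1.22e-05), from 157 to 193 CPM in the nontargeting libraries to 74.9 to 129 CPM in the on-target libraries. Within the IAP family, BIRC3, BIRC2 and XIAP thus rose against siCtrl#1, BIRC6 did not pass the test and BIRC5 fell.

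In the mean, edgeR called 15.0% of all genes tested. None of the 5 tested RIP kinases and partners (NOD1, CASP8, CASP10, CFLAR and MLKL) was called by edgeR or DESeq2 in the mean or with any single siRNA. In the mean, 2 of them had an unadjusted p under 0.05, namely NOD1 (−0.64, SE 0.29, adjusted p = 0.123) and MLKL (−0.50, SE 0.23, adjusted p = 0.121). CFLAR fell to 2.31 CPM in its lowest nontargeting library (nontargeting median 31.0), and its changes were imprecise (SE 0.43 with siTsg101#1). RIPK3, the necroptosis kinase, and NOD2, another receptor that uses RIPK2, had 0 counts in every library.

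Of the 13 ubiquitin ligases, conjugating enzymes and deubiquitinases, 4 were up-regulated in the mean, against 8.4% of all genes. TNFAIP3, the deubiquitinase A20 that acts on RIPK1, rose by 1.92 (SE 0.30, adjusted p = 6.92e-05) and more so with siTsg101 than with siVps28 (difference 1.51, SE 0.21, adjusted p = 1.67e-05). CYLD, a deubiquitinase that removes linear and lysine-63 chains, rose by 1.35 (SE 0.14, adjusted p = 5.30e-07) and was also called in siCtrl#2 (0.70, adjusted p = 0.0261). TNIP1, a partner of A20, rose by 0.98 (SE 0.14, adjusted p = 1.90e-05), and PELI1, a ligase of the Toll-like receptor pathway, by 0.73 (SE 0.22, adjusted p = 0.0158). The linear ubiquitin ligase subunits RNF31, RBCK1 and SHARPIN were not called in the mean.

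Of the 10 tested kinases and subunits downstream, 3 were up-regulated in the mean, against 8.4% of all genes. The transcript of MAP3K14, which codes for the NIK kinase, rose by 1.59 (SE 0.20, adjusted p = 6.07e-06), from 3.6 to 10.7 CPM in the nontargeting libraries to 17.7 to 58.4 CPM in the on-target libraries. The NIK protein, which cIAP proteins keep low, was not measured in these libraries. TAB2 rose by 0.66 (SE 0.16, adjusted p = 0.00366) and TAB3 by 0.64 (SE 0.16, adjusted p = 0.00551), both being subunits of the TAK1 kinase complex. The mean level of TAB2 was 58.3 CPM with siCtrl#1 and 85.3 CPM with siCtrl#2. It was 96.6 and 78.2 CPM with siTsg101#1 and siTsg101#2, and 93.0 and 104 CPM with siVps28#1 and siVps28#2. TAB3 was not called with siTsg101#1 (0.14, adjusted p = 0.643) or siTsg101#2 (0.54, adjusted p = 0.0533). It was called lower with siTsg101 than with siVps28. MAP3K7, the TAK1 kinase itself, was higher with siTsg101 than with siVps28 by 1.11 (SE 0.18, adjusted p = 1.39e-04), but the siTsg101 siRNAs differed from each other (by 0.99, adjusted p = 0.01). Against siCtrl#1 it was called with siTsg101#1 (1.62, adjusted p = 5.89e-05) and not with siTsg101#2 (0.63, adjusted p = 0.0859). CHUK, IKBKB and TBK1 were not called in the mean.

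**Figure D5:**
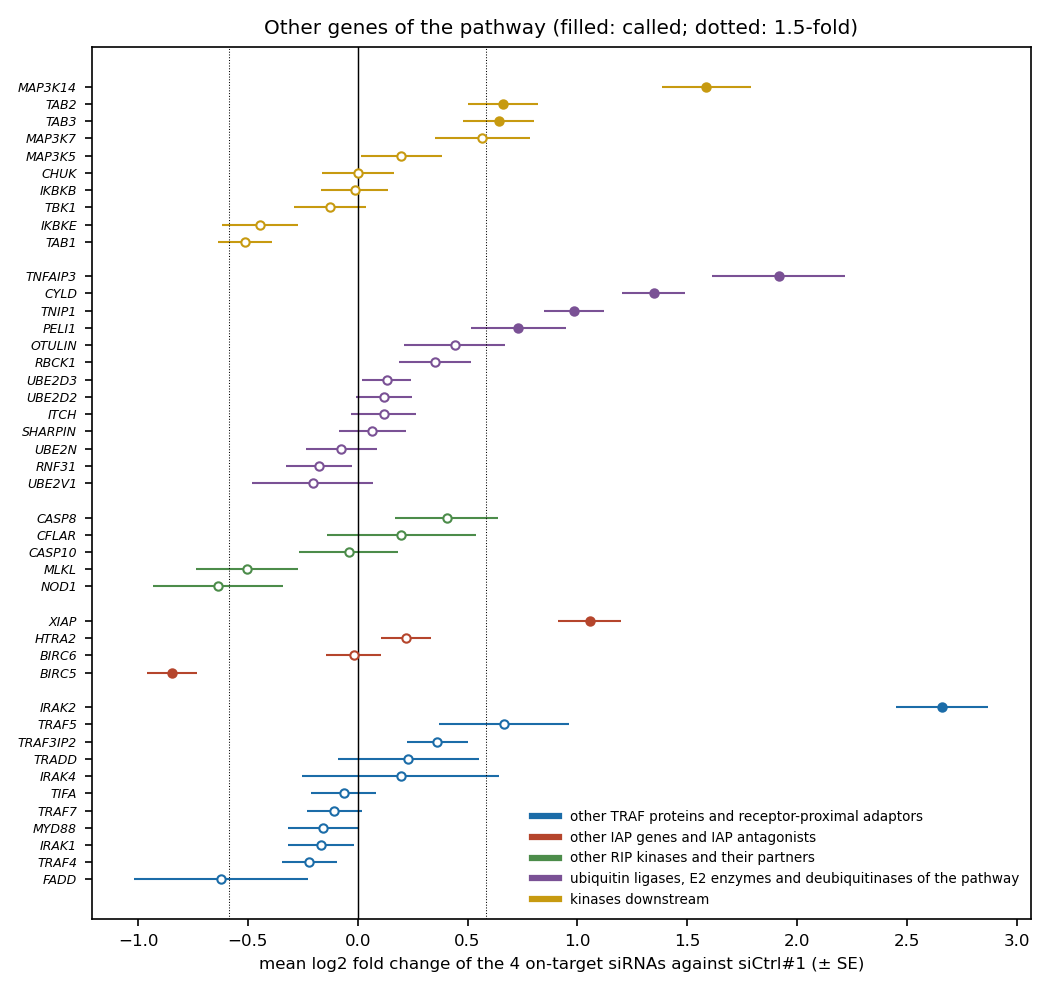
Mean log2 fold change of the 4 on-target siRNAs against siCtrl#1 (± SE) of the 43 tested genes of the pathway list, by group, filled where called, with dotted lines at 1.5-fold in either direction. IRAK2, TNFAIP3, MAP3K14, CYLD, XIAP and TNIP1 have the highest values (2.66 to 0.98), and BIRC5 (−0.85) is the only gene called downwards.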

How the data were processed

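RNA of RKO cells in 6 siRNA groups of 3 libraries was read with the Ion AmpliSeq Transcriptome panel, in which every target is represented by a short amplicon. Reads had been aligned with the Torrent Mapping Alignment Program to an hg19 transcript reference of the panel, and the authors deposited counts of whole reads per target, made with HTSeq 0.6.0 and not normalized. Whether counting used strand is not given in the sources used here. Summary rows that name no gene took 53.3 to 54.6% of reads and were left out, as were 10 spike-in rows with 1 read in all. Names came from matching RefSeq accessions (20228 of 20802), and gene coordinates and exon overlaps from GENCODE on GRCh37.

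Genes with more than 100 counts in all (10632) were kept and 386 of noncoding type left out, as in the study's methods, which left 10246. Counts were fitted with edgeR 4.0.16 (R 4.3.3) in one model of the 6 groups, with TMM factors, the quasi-likelihood test and Benjamini-Hochberg adjustment, and log2 CPM used a prior count of 2. edgeR was tested on simulated counts with known changes. The members and lists were chosen with earlier results of these data known. Genes named are the 8 members, TSG101 and VPS28, genes of the pathway list, markers, and the 3 genes most correlated with each member over 18 libraries. Replicates of a group were never identical and differed by more than sampling noise. Replicate numbers pair libraries because the labels give them as the batch, and deviations from group means correlated by a mean of 0.15 for 45 pairs of the same number and −0.07 for 90 other pairs. The alternatives were DESeq2 1.42.0, RLE factors, 2 other low-count filters, noncoding genes included, the reference changed to siCtrl#2 or to both nontargeting siRNAs, a replicate block, the adjusted p alone, a fit of the groups compared only, and each of the 18 libraries left out.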

Additional observations from a re-analysis of the deposited data

Results flagged for a closer look

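The 2 siRNAs against TSG101 differed for BIRC2, which was higher with siTsg101#1 than with siTsg101#2 by 0.62 on the log2 scale (edgeR quasi-likelihood test of the difference, adjusted p = 0.0384). The BIRC2 levels were 163, 141 and 152 CPM with siTsg101#1 and 117, 84.7 and 94.2 CPM with siTsg101#2. The difference was not called without any one siTsg101#1 replicate, without siTsg101#2 replicate 2 or 3, or without siVps28#1 replicate 1 (adjusted p from 0.0508 to 0.183). The depletion of TSG101 itself did not differ detectably between the siRNAs (0.27, 95% CI −0.61 to 1.14).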

How the results depend on the processing

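The up-regulation of BIRC3 against siCtrl#1, with each on-target siRNA and in their mean, kept its direction and its call under every alternative run, and 3 members were up-regulated in the mean of the 4 siRNAs without any 1 library. The number of members down-regulated became 1 for siTsg101#1 and 1 for siVps28#2 (TRAF2 in each) with DESeq2, without a low-count filter, with the replicate block and with only the groups compared. The number up-regulated in siCtrl#2 against siCtrl#1 became 1 (BIRC2) with DESeq2, without a filter and with the replicate block, and the block changed no other count of members. With siCtrl#2 as the reference, 0 members were down-regulated with siTsg101#2 and 0 in the mean, 1 was up-regulated with siVps28#1 and 1 with all siRNAs alike, and 5 genes of the pathway list were up-regulated. With the mean of both references, 0 members were down-regulated in the mean. The pathway genes down-regulated in the mean numbered 2 with that reference, without a filter and with the adjusted p alone. The cause was not tested for any of these.

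Directions that reversed were those of changes that were not called against siCtrl#1. They were RIPK1 with siTsg101#1 (−0.13 against siCtrl#2 and −0.018 against the mean of both), BIRC2 with siTsg101#2 (−0.27 against siCtrl#2), TRAF6 with siVps28#1 (0.61 and 0.24 with these references) and RIPK2 in siCtrl#2 (−0.011 with the replicate block).

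With each library left out in turn, members up-regulated numbered 2 to 3 for each on-target siRNA, 1 to 2 for all alike, 0 to 1 for siCtrl#2 and 0 to 1 for siTsg101#1 against siTsg101#2. Members down-regulated numbered 0 to 1 in the mean, for siTsg101#1, siTsg101#2, siVps28#2 and for siTsg101 against siVps28. Pathway genes up-regulated numbered 7 to 10 in the mean and 5 to 6 for all alike, and those down-regulated 1 to 2 and 0 to 1. The log2 changes that reversed were all uncalled. Against siCtrl#1 they ranged from −0.35 to 0.10 for TRAF6 and from −0.41 to 0.0075 for TRAF2 with siVps28#1, from −0.017 to 0.44 for TRAF6 with siVps28#2 and from −0.025 to 0.43 for TRAF6 in the mean, and in siCtrl#2 from −0.14 to 0.30 for RIPK2, −0.48 to 0.077 for TRAF2 and −0.17 to 0.050 for TRAF3. For siTsg101#1 against siTsg101#2 they ranged from −0.18 to 0.052 for RIPK2, −0.41 to 0.046 for TRAF6, −0.044 to 0.75 for BIRC3 and −0.031 to 0.48 for TRAF2. For siVps28#1 against siVps28#2 they ranged from −0.049 to 0.38 for BIRC3, −0.30 to 0.00063 for BIRC2 and −0.088 to 0.12 for RIPK2, and for siTsg101 against siVps28 from −0.0040 to 0.10 for RIPK1. TRAF6 and TRAF1 are limited by depth, with at most 45 and 7 counts per library.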
